A study of Mus musculus with 8 samples.

Results

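Expression of 42 genes of mitosis, the kinetochore and the spindle checkpoint was examined in normal mouse brain and in mouse glioblastoma. The genes were taken as a named list of mitotic kinases and cyclins, checkpoint proteins, kinetochore subunits, spindle and cytokinesis proteins and regulators of anaphase, and their fragments were summed per gene symbol. All 42 were found among the 23523 genes and unnamed transcripts in the table, and all 42 were tested. The samples were 3 pieces of normal mouse brain and 5 mouse glioblastomas, sequenced as RNA libraries of 5490356 to 15564279 assigned fragments. The tumours were induced with a lentiviral vector that expressed HrasG12V, an activated form of the Hras oncogene, together with an shRNA against p53, the product of Trp53. They were taken from mice that had reached the clinical endpoint, and GFP+ tumour tissue was separated from normal brain under a dissecting microscope. No source used here gives the mouse strain, age or sex, the brain region, the promoter of the vector or the cell type it entered. Whether each sample is a separate animal is not stated, so p-values measure the spread between these samples, which may be technical.

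Mitosis separates the duplicated chromosomes of a dividing cell. Cdk1 bound to cyclin A or cyclin B drives entry into mitosis, kinetochores assembled on centromeres attach the chromosomes to spindle microtubules, and the spindle checkpoint holds back Cdc20 and the anaphase-promoting complex until every chromosome is attached. The complex then marks securin and cyclin B for destruction, separase opens the cohesin ring, and cytokinesis divides the cell. In many cell types the messenger RNAs of these genes accumulate late in the cell cycle, through promoters that carry CCAAT boxes, bound by the factor NF-Y, and a cell cycle homology region, bound by the MuvB complex. Most neurons of the adult brain have left the cell cycle, while glioblastoma is a dividing tumour.

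Of the 42 genes, 41 were higher in glioblastoma than in normal brain and 0 were lower (edgeR quasi-likelihood test, Benjamini-Hochberg adjusted p below 0.05). Over all 14641 genes tested, 71.0% were called, 37.1% as higher and 33.9% as lower. The median log2 fold change was 4.96 over the 42 genes and 0.06 over all genes tested. In 39 of the 42 genes every tumour lay above every brain, as did 36.1% of all genes tested. Of the 42 genes, 40 were called higher with a change of at least 2-fold, against 27.4% of all genes tested. At least 16-fold higher were 31 of the 42, against 6.65% of all genes tested, and 25 of the 31 had under 30 fragments over the 3 brains together. Pttg1, which encodes securin, was the 1 gene that did not pass the test. The filter on low counts kept genes that reached the equivalent of 10 fragments at the median library size in at least 3 samples. On library sizes corrected by TMM (trimmed mean of M values) this is about 1.40 CPM (counts scaled to library size). That level was reached in all 3 brains by 13 of the 42 genes, 12 of which were higher. The other 29 fell under it in at least 1 brain and passed through their tumour levels, so their calls could go 1 way only. With no filter the count was also 41, but the brain levels of these 29 stay as low, so that count does not lift the limit. The samples were pieces of tissue, so fewer cells of a type and less RNA per cell cannot be told apart in any of these values.

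**Figure D1:**
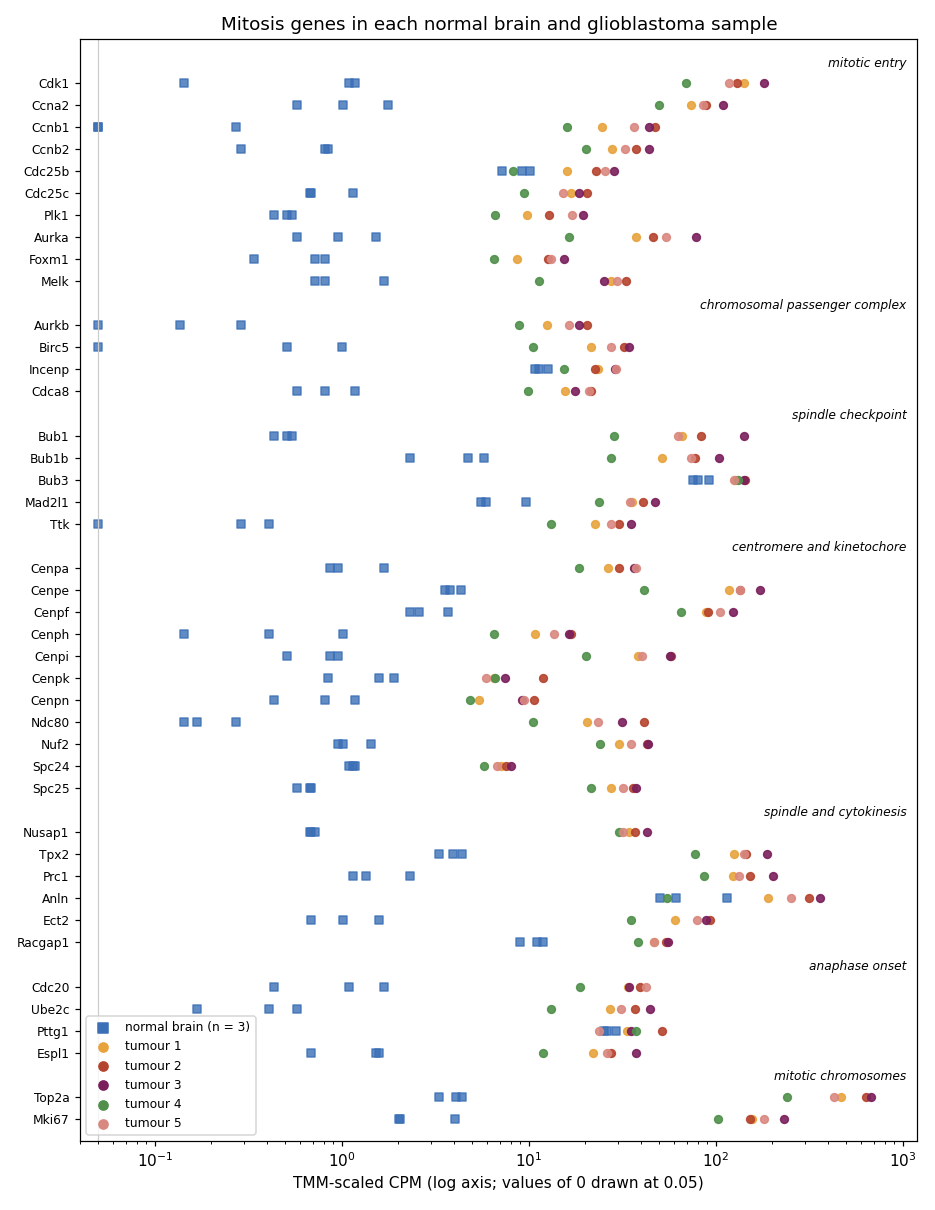
Level of each of the 42 genes (rows, grouped by role) as TMM-scaled CPM on a log axis, with a square for each of the 3 brains, a circle for each of the 5 tumours and values of 0 drawn at 0.05. Tumours lie right of brains without overlap in 39 genes, and Bub3, Pttg1 and Anln are already high in brain.

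The targets of the vector check the labels. Hras had 94.2, 102 and 103 CPM in the 3 brains and 479, 327, 470, 337 and 453 CPM in tumours 1 to 5, where TMM scaling (trimmed mean of M values) corrects the library sizes behind CPM. It rose by 2.05 ± 0.19 on the log2 scale (SE, adjusted p = 1.9e-05, edgeR), and fragments of the vector and of the mouse gene cannot be told apart. Trp53 had 4.74, 7.21 and 4.91 CPM in the brains and 2.95, 3.25, 5.92, 2.74 and 5.49 CPM in the tumours. The 2 groups overlapped and its change of -0.46 ± 0.35 was not called (adjusted p = 0.262).

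Markers of other cell types moved with the comparison, and their part in the values of the mitotic genes was not tested. Of 8 neuronal markers 7 were lower in glioblastoma, with a summed level of 6689 to 7738 CPM in the brains and 324 to 501 CPM in the tumours. All 5 markers of myelinating oligodendrocytes were lower, from 2825 to 5522 CPM down to 191 to 627 CPM. All 7 markers of macrophages and microglia were higher, from 155 to 169 CPM up to 920 to 2052 CPM, and 3 of 4 neural progenitor markers were higher, from 74.9 to 89.3 CPM up to 4869 to 5775 CPM. Mean log2 CPM of these 4 progenitor markers was 3.52 to 3.86 in the brains and 6.52 to 7.67 in the tumours. Their levels were thus unequal, and the sum in the tumours mostly reflects the highest of them. All 4 endothelial markers were higher, from 54.2 to 63.8 CPM up to 116 to 304 CPM. Of 5 astrocyte markers 3 were lower, from 4369 to 4772 CPM down to 678 to 1692 CPM. Of 5 markers of oligodendrocyte precursors 1 was higher, with 192 to 211 CPM in the brains and 148 to 1827 CPM in the tumours. Of 4 pericyte markers 2 were higher and 1 was lower, with 131 to 150 CPM in the brains and 124 to 261 CPM in the tumours. The 5 T cell markers summed to between 1.37 and 2.89 CPM in the tumours and were too low to test, with Cd3e and Cd3d at 0 in the brains, and none of 3 red blood cell markers was called (6.13 to 34.0 CPM in the brains and 10.3 to 66.0 CPM in the tumours).

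Promoter sequence was examined because these genes moved together. RefSeq promoter windows of GRCm38.p6 were matched for 35 of the 42 genes by symbol, and the 250 bases before each start were searched on both strands for CCAAT and for the core of the cell cycle homology region, spelled TTTGAA or TTCGAA. The CCAAT box stood in the windows of 25 of the 35 genes (71.4%) and in those of 37.5% of 27025 genes. At least 2 CCAAT matches stood in 17 of the 35 (48.6%) and in 11.5% of all genes. The cell cycle homology region core stood in 12 of the 35 (34.3%) and in 19.6% of all genes. All 12 held CCAAT too, a pairing found in 7.001% of all genes. Those 27025 include genes that were not tested. Over 11458 tested genes with a window, CCAAT stood in 40.2% and at least 2 matches in 14.5%. The core stood in 14.5% of the tested genes and the pairing in 5.62%. A window that also took in the 50 bases after the start was chosen after the values were seen. There the core stood in 24 of the 35 (68.6%), in 21.7% of all genes and in 16.2% of the tested genes.

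The 250 bases before the start are given, 5′ to 3′ on the strand of the gene, for 8 genes. Cdk1, Ccnb1, Ccnb2, Top2a and Ube2c had large changes and repeated CCAAT boxes, Bub3 held both motifs with the smallest called change, Nusap1 held neither with a large change, and Pttg1 held neither and was not called. The 8 were picked after these values were seen. Capitals mark the motifs: CCAAT or its reverse complement ATTGG, and TTTGAA, its reverse complement TTCAAA, or TTCGAA. The windows are chr10:69352913-69353162 (minus strand) for Cdk1, chr13:100786487-100786736 (minus strand) for Ccnb1, chr9:70421555-70421804 (minus strand) for Ccnb2, chr11:99024190-99024439 (minus strand) for Top2a, chr2:164769679-164769928 (plus strand) for Ube2c, chr7:131560120-131560369 (plus strand) for Bub3, chr2:119618048-119618297 (plus strand) for Nusap1 and chr11:43425982-43426231 (minus strand) for Pttg1.
Cdk1: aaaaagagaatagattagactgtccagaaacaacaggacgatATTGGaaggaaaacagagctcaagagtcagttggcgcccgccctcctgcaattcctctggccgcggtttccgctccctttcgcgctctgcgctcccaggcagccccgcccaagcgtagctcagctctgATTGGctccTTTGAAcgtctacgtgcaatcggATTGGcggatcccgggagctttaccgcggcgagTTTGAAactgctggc
Ccnb1: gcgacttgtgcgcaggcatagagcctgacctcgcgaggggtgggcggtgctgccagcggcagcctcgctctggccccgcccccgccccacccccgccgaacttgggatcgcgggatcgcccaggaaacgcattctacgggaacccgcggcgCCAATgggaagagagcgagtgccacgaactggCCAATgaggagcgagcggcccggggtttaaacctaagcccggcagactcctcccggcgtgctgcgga
Ccnb2: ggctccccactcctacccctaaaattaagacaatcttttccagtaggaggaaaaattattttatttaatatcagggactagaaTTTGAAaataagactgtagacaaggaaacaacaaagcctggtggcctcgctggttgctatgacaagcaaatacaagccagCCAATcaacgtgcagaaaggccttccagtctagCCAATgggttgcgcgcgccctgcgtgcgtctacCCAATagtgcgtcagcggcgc
Top2a: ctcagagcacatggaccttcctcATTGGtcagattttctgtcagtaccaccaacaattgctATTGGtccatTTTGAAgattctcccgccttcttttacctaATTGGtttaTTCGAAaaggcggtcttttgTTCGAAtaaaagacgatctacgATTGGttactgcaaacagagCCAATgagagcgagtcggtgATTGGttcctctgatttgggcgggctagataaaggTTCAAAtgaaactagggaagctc
Ube2c: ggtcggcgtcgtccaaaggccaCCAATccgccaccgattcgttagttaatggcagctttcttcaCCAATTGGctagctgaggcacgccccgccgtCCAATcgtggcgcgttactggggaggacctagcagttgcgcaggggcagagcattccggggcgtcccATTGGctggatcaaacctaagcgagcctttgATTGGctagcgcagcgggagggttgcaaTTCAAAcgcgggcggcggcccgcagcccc
Bub3: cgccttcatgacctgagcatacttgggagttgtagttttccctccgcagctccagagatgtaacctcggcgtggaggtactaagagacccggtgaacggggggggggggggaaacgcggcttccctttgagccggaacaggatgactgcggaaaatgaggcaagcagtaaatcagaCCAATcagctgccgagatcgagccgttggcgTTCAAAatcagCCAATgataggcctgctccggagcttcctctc
Nusap1: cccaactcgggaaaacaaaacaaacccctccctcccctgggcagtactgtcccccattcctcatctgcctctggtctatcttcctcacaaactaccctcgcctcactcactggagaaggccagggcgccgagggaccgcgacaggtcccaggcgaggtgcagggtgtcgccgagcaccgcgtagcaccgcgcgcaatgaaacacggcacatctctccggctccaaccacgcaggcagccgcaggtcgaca
Pttg1: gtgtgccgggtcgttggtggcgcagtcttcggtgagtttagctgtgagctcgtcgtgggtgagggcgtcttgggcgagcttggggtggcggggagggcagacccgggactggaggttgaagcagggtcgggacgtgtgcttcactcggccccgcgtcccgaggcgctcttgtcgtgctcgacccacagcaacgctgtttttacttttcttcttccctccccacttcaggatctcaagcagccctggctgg
Cdk1 and Ccnb2 held 3 CCAAT matches each, Ccnb1 and Bub3 held 2 each, and Top2a and Ube2c held 6 each. The core was matched 2 times in Cdk1, 4 times in Top2a, 1 time in Ccnb2, 1 time each in Ube2c and Bub3 and 0 times in Ccnb1. The windows of Nusap1 and Pttg1 held neither motif. Of the 35 genes, 10 had neither motif, and 9 of those 10 were called higher. The median log2 fold change was 4.78 over these 10 and 5.05 over the 25 with CCAAT. A match describes the letters of the window and is not evidence of a bound factor.

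The 10 genes of mitotic entry were all higher in glioblastoma, with a median log2 fold change of 5.10. Cdk1, the kinase that starts mitosis, had 1.18, 0.144 and 1.09 CPM in brains 1 to 3 and 141, 130, 181, 69.2 and 118 CPM in tumours 1 to 5. Every tumour lay far above every brain, and the log2 fold change was 7.30 ± 0.57 (SE, adjusted p = 9.2e-06, edgeR). Its partner Ccna2, cyclin A2, had 1.01, 0.577 and 1.77 CPM in the brains and 73.5, 88.4, 110, 49.96 and 85.1 CPM in the tumours, a log2 fold change of 6.15 ± 0.43.

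Ccnb1, cyclin B1, had the largest fitted change of the 42 genes, 8.22 ± 0.77 on the log2 scale (adjusted p = 2.4e-05, edgeR). It was counted 2 times in the brains, both times in brain 3, and 1503 times in the tumours. Brains 1 and 2 held 0 fragments, and the tumours held 24.8, 47.4, 44.0, 16.1 and 36.7 CPM. The ratio of the levels was 341, with a 95% exact Poisson interval of 94.4 to 2817 that covers counting error of the brain fragments only. Ccnb2, cyclin B2, had 0.846, 0.289 and 0.818 CPM in the brains and 27.9, 37.7, 44.2, 20.3 and 32.8 CPM in the tumours, and rose by 5.62 ± 0.43 on the log2 scale.

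The kinases that act with cyclin B moved the same way. Aurka, which matures the spindle poles, had 1.52, 0.577 and 0.954 CPM in the brains and 37.5, 46.0, 78.4, 16.4 and 54.5 CPM in the tumours. Its tumour levels spread 4.77-fold from tumour 4 to tumour 3, and all of them lay above the brains (log2 fold change 5.52 ± 0.63). Plk1, which acts at centrosomes, kinetochores and the midbody, was lower in level, with 0.433 to 0.545 CPM in the brains and 6.64 to 19.4 CPM in the tumours (4.69 ± 0.49). Melk, a kinase of dividing cells, had 0.721 to 1.69 CPM in the brains and 11.3 to 33.01 CPM in the tumours (4.56 ± 0.48). Foxm1, a transcription factor of the late cell cycle, had 0.338 to 0.818 CPM in the brains and 6.52 to 15.4 CPM in the tumours (4.11 ± 0.45).

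The 2 phosphatases that switch on Cdk1 differed in their brain levels. Cdc25c had 0.677, 1.15 and 0.682 CPM in the brains and 16.8, 20.6, 18.5, 9.49 and 15.2 CPM in the tumours, a log2 fold change of 4.23 ± 0.37. Cdc25b had 10.1, 9.23 and 7.23 CPM in the brains and 15.98, 22.9, 28.6, 8.27 and 25.7 CPM in the tumours. Tumour 4 fell among the brains, the other 4 tumours lay above them, and the gene changed by 1.19 ± 0.39 on the log2 scale (adjusted p = 0.0235, edgeR). The call for Cdc25b was lost without brain 2 (adjusted p = 0.0624) and without brain 3 (adjusted p = 0.0839).

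The 4 genes of the chromosomal passenger complex, which corrects wrong attachments and guides cytokinesis, were all higher, with a median log2 fold change of 4.97. Aurkb, its kinase, was counted 3 times in the brains and 697 times in the tumours. It had 0, 0.289 and 0.136 CPM in the brains and 12.6, 20.4, 18.5, 8.85 and 16.5 CPM in the tumours. The ratio of its levels was 103, with a 95% exact Poisson interval of 35.4 to 501, and the fitted log2 fold change was 6.56 ± 0.59. Birc5, survivin, had 0.507, 1.01 and 0 CPM in the brains and 21.6, 32.5, 34.5, 10.6 and 27.7 CPM in the tumours (5.62 ± 0.75). Cdca8, borealin, had 0.577 to 1.18 CPM in the brains and 9.90 to 21.5 CPM in the tumours (4.31 ± 0.39).

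Incenp, the scaffold of the same complex, was already present in brain. It had 12.7, 11.4 and 10.8 CPM in the brains and 23.4, 22.6, 29.0, 15.5 and 29.4 CPM in the tumours. The groups did not overlap, and the log2 fold change was 1.04 ± 0.24 (adjusted p = 0.00359, edgeR). In the brains Incenp exceeded the other 3 members of its complex in length-scaled level, with 3.65 FPKM (fragments scaled to transcript length and library size) against 0.571 or less, while in the tumours Birc5 was highest with 29.0 ± 11.5 FPKM (SD, n = 5) and Incenp lowest with 7.48 ± 1.77.

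The 5 spindle checkpoint genes were all higher, with a median log2 fold change of 3.97, and their changes ran from 0.69 to 7.22. Bub1, a checkpoint kinase of the kinetochore, had 0.507, 0.433 and 0.545 CPM in the brains and 65.8, 83.5, 141, 28.5 and 62.6 CPM in the tumours. Its tumour levels spread 4.97-fold, with tumour 3 far above the rest, and its log2 fold change was 7.22 ± 0.68 (adjusted p = 2.4e-05, edgeR). Ttk, the kinase also called Mps1 that starts checkpoint signalling, had 0, 0.289 and 0.409 CPM in the brains and 13.2 to 35.4 CPM in the tumours (6.64 ± 0.61).

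Bub1b, which encodes BubR1 of the mitotic checkpoint complex, had 5.75, 4.76 and 2.32 CPM in the brains and 51.7, 77.6, 104, 27.5 and 73.8 CPM in the tumours (3.97 ± 0.52). Mad2l1, the Mad2 protein that binds Cdc20, had 9.64, 5.92 and 5.59 CPM in the brains and 35.7, 41.0, 47.3, 23.6 and 34.7 CPM in the tumours (2.37 ± 0.29). Bub3, the adaptor that brings Bub1 and BubR1 to kinetochores, had 92.4, 80.7 and 75.8 CPM in the brains and 127, 143, 142, 131 and 126 CPM in the tumours. The tumours lay close together and above all brains, and its log2 fold change of 0.69 ± 0.12 (adjusted p = 0.000878, edgeR) was the 1 called change under 2-fold.

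The 11 genes of the centromere and kinetochore were all higher, with a median log2 fold change of 4.93. The 4 subunits of the Ndc80 complex, which binds microtubules, are Ndc80, Nuf2, Spc24 and Spc25. Ndc80 had 0.169, 0.144 and 0.273 CPM in the brains and 20.5, 41.3, 31.5, 10.6 and 23.5 CPM in the tumours, a log2 fold change of 6.90 ± 0.65 (adjusted p = 2.4e-05, edgeR). Nuf2 had 1.01, 1.44 and 0.954 CPM in the brains and 24.0 to 43.2 CPM in the tumours (4.93 ± 0.31). Spc25 had 0.677, 0.577 and 0.682 CPM in the brains and 27.5, 36.1, 37.7, 21.4 and 32 CPM in the tumours (5.55 ± 0.30).

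Spc24 had a smaller fitted change than its 3 partners. It had 1.18, 1.15 and 1.09 CPM in the brains and 7.14, 7.58, 8.07, 5.77 and 6.79 CPM in the tumours, and rose by 2.61 ± 0.26 on the log2 scale, an interval of 1.97 to 3.25 that lay below the intervals of Ndc80, Nuf2 and Spc25, the lowest of which began at 4.16. On the length-scaled measure the 4 subunits had 12.0 ± 5.66 (Ndc80), 15.1 ± 3.72 (Nuf2), 5.79 ± 0.782 (Spc24) and 25.6 ± 5.99 FPKM (Spc25) in the tumours (SD, n = 5). The gap between Spc24 and its partners was not tested as a difference. Over the 3 brains Ndc80, Nuf2, Spc24 and Spc25 held 4, 23, 23 and 13 fragments, so these intervals can be too narrow.

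The inner kinetochore and its motor and fibrous proteins moved the same way. Cenpa, the histone H3 variant that marks centromeres, had 1.69, 0.866 and 0.954 CPM in the brains and 26.7, 30.5, 36.5, 18.7 and 37.4 CPM in the tumours (4.68 ± 0.37). Cenpe, a kinesin that moves chromosomes to the spindle equator, had 3.55, 4.33 and 3.82 CPM in the brains and 118, 136, 172, 41.5 and 135 CPM in the tumours (4.94 ± 0.50), with tumour 4 far below the other 4 tumours. Cenpf, a large protein of the outer kinetochore, had 2.31 to 3.72 CPM in the brains and 64.9 to 124 CPM in the tumours (5.05 ± 0.30).

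Of the 4 subunits of the constitutive centromere network, Cenpi had the largest change, 5.73 ± 0.48, with 0.507 to 0.954 CPM in the brains and 20.2 to 57.6 CPM in the tumours. Cenph rose by 4.63 ± 0.58, from 0.144 to 1.01 CPM in the brains up to 6.52 to 16.8 CPM in the tumours. Cenpn rose by 3.27 ± 0.46, from 0.433 to 1.18 CPM up to 4.83 to 10.6 CPM. Cenpk had 0.846, 1.59 and 1.91 CPM in the brains and 6.51, 11.9, 7.44, 6.58 and 5.90 CPM in the tumours (2.37 ± 0.38), and tumour 5 rather than tumour 4 was its lowest tumour.

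The 6 genes of the spindle and cytokinesis were all higher, with a median log2 fold change of 5.38. Nusap1, which bundles spindle microtubules, had 0.677, 0.721 and 0.682 CPM in the brains and 34.6, 37.0, 43.0, 30.5 and 31.9 CPM in the tumours. The brains held only 4, 5 and 5 fragments of Nusap1, so their small spread rests on few counts. Its log2 fold change of 5.64 ± 0.23 had the lowest adjusted p of the 42 genes (4.2e-07, edgeR). Tpx2, which activates Aurora A on the spindle, had 4.40, 3.32 and 3.95 CPM in the brains and 125, 146, 188, 77.9 and 141 CPM in the tumours (5.12 ± 0.34). Prc1, which crosslinks the microtubules of the central spindle, had 1.35, 1.15 and 2.32 CPM in the brains and 124, 153, 204, 86.9 and 133 CPM in the tumours (6.42 ± 0.41).

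Ect2, the exchange factor that activates RhoA at the division plane, had 0.682 to 1.59 CPM in the brains and 35.2 to 93.3 CPM in the tumours (6.01 ± 0.47). Its partner Racgap1, a subunit of centralspindlin, had 8.97, 11.1 and 12.0 CPM in the brains and 46.7, 53.9, 55.3, 38.2 and 46.9 CPM in the tumours (2.17 ± 0.19).

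Anln encodes anillin, a scaffold of the contractile ring that is also found in myelinating oligodendrocytes. It had 115, 61.5 and 50.2 CPM in the brains and 190, 316, 362, 54.8 and 254 CPM in the tumours. Tumour 4 fell among the brains and the other 4 tumours lay above them, and the gene changed by 1.64 ± 0.57 on the log2 scale (adjusted p = 0.0286, edgeR). Brain 1, the highest brain for Anln, was also the highest in summed myelin markers, with 5522 CPM against 2831 and 2825 CPM in brains 2 and 3. The part of those markers in the value was not tested. The call was lost without brain 2 (1.52, adjusted p = 0.0943), without brain 3 (1.42, adjusted p = 0.0999), without tumour 2 (adjusted p = 0.0550) and without tumour 3 (adjusted p = 0.0547). The change was 2.08 without brain 1, 1.91 without tumour 4 and 2.34 without both.

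Of the 4 genes of anaphase onset, 3 were higher, with a median change of 4.65 over all 4 on the log2 scale. Cdc20, the activator of the anaphase-promoting complex that the checkpoint holds back, had 1.69, 0.433 and 1.09 CPM in the brains and 34.1, 39.1, 34.5, 18.9 and 42.5 CPM in the tumours (4.98 ± 0.46). Ube2c, a ubiquitin-conjugating enzyme of that complex, had 0.169, 0.577 and 0.409 CPM in the brains and 27.1, 37.0, 44.7, 13.2 and 31.2 CPM in the tumours (6.23 ± 0.57). Espl1, separase, had 0.682 to 1.59 CPM in the brains and 11.9 to 37.4 CPM in the tumours (4.31 ± 0.48).

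Pttg1, securin, which blocks separase until anaphase, had 29.3, 25.2 and 26.3 CPM in the brains and 33.5, 51.4, 35.3, 37.4 and 23.7 CPM in the tumours. Tumour 5 lay below every brain and the other 4 tumours lay above. The log2 fold change was 0.43 ± 0.23 with a 95% interval of -0.14 to 0.99 (adjusted p = 0.129, edgeR), which spans no change and reaches almost 2-fold. Without tumour 5 the change was 0.55 and passed the test (adjusted p = 0.0300).

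Both genes of mitotic chromosomes were higher. Top2a, the topoisomerase that untangles sister chromatids, had 4.40, 3.32 and 4.09 CPM in the brains and 468, 641, 681, 240 and 430 CPM in the tumours, a log2 fold change of 6.96 ± 0.45 (adjusted p = 3.6e-06, edgeR). Mki67, the Ki-67 protein that coats mitotic chromosomes and is used as a marker of dividing cells, had 4.06, 2.02 and 2.04 CPM in the brains and 157, 153, 232, 102 and 182 CPM in the tumours (5.94 ± 0.40). In both genes tumour 3 was highest and tumour 4 lowest.

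**Figure D2:**
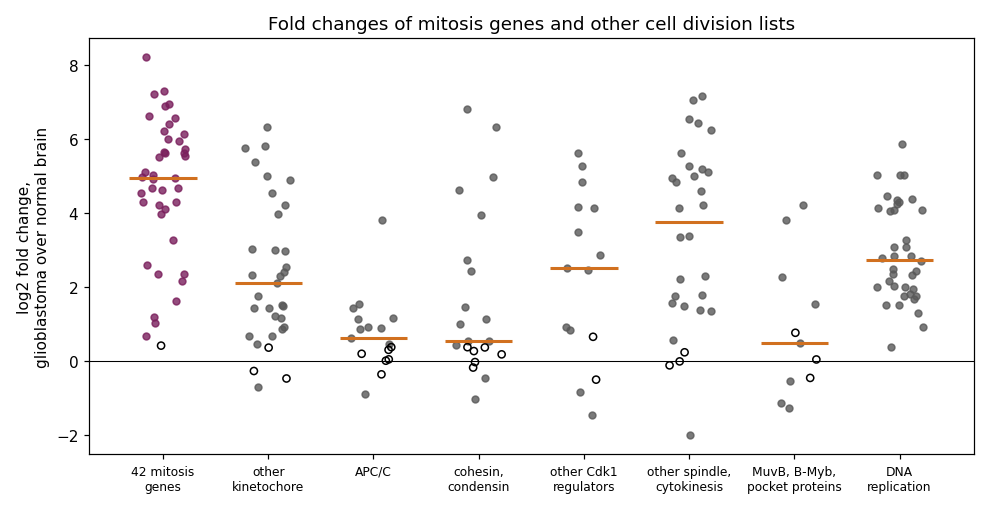
Log2 fold change of glioblastoma over normal brain for each tested gene (filled points called, open points not called) in the 42 mitosis genes and in 7 related lists, with a bar at each median. The median is 4.96 for the 42 genes and 0.50 to 3.76 for the related lists.

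The brain values rest on few fragments. Over the 3 brains together, 27 of the 42 genes had under 30 fragments and 7 had over 100. On the scaled measure 1 fragment corresponds to 0.136 to 0.169 CPM and 3 fragments to 0.409 to 0.507 CPM in a brain, and brain levels of that size are at the limit of the depth.

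On the length-scaled measure, which allows genes to be compared with each other, 3 genes made up most of the brain signal. Pttg1 with 44.4 FPKM, Bub3 with 42.4 FPKM and Anln with 13.7 FPKM (means of 3 brains) held 75.9% to 76.9% of the summed FPKM of the 42 genes in each brain. In the tumours the same 3 genes held 16.5% to 25.99%, with the highest share in tumour 4. Each of the other 39 genes had a brain mean under 5 FPKM, and Mad2l1 was the highest of them with 4.38. In the tumours Top2a was highest with 92.6 ± 34.4 FPKM (SD, n = 5), followed by Bub3 with 67.9 ± 5.07, Pttg1 with 61.5 ± 18.3, Prc1 with 47.1 ± 14.6, Cdk1 with 45.3 ± 14.5 and Anln with 42.6 ± 21.97. Foxm1 was lowest with 2.55 ± 0.823 FPKM. Neighbours in this order overlap within their SD, as do Top2a and Bub3. The sum over the 42 genes was 121 to 149 FPKM in the brains and 530 to 1189 FPKM in the tumours.

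**Figure D3:**
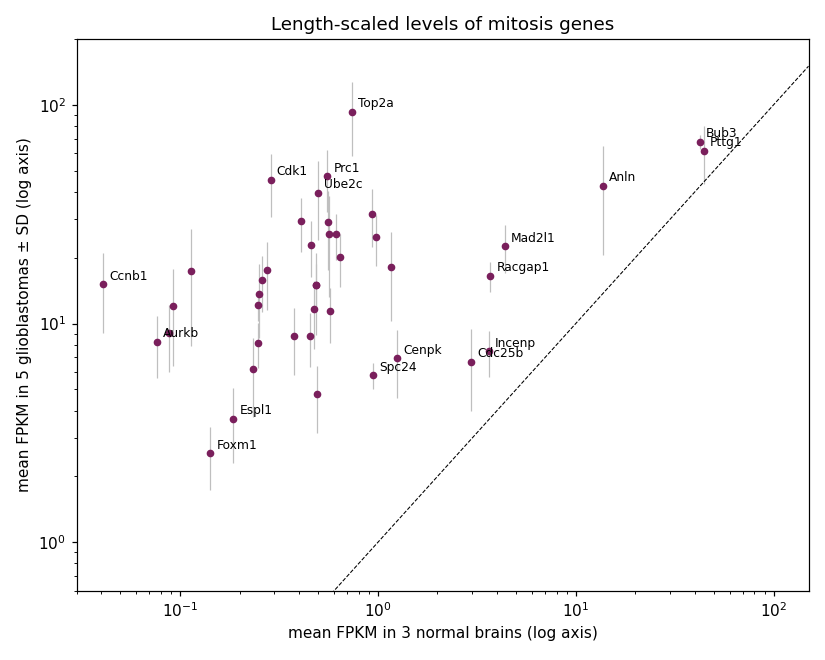
Mean FPKM of each of the 42 genes in the 3 brains (x, log axis) and in the 5 tumours (y, log axis, bars show SD), with a dashed line at equal levels. Pttg1 and Bub3 lie closest to the line, and Top2a has the highest tumour level.

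Over the 42 genes the mean log2 CPM was 5.66 in tumour 3, 5.53 in tumour 2, 5.35 in tumour 5, 5.13 in tumour 1 and 4.45 in tumour 4, against 0.77 to 0.99 in the brains. Tumour 4 was lowest of the 5 tumours in 39 of the 42 genes, as it was in 36.1% of all genes tested, and the exceptions were Bub3, Cenpk and Pttg1. Tumour 3 was highest in 26 genes, tumour 2 in 13 and tumour 5 in 3, while tumour 3 was highest in 20.1% and tumour 2 in 19.0% of all genes tested. The full order from tumour 3 to tumour 4 appeared gene by gene in 14 of the 42. Each tumour is 1 sample, so these are values of those samples with no test of a difference between them.

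**Figure D4:**
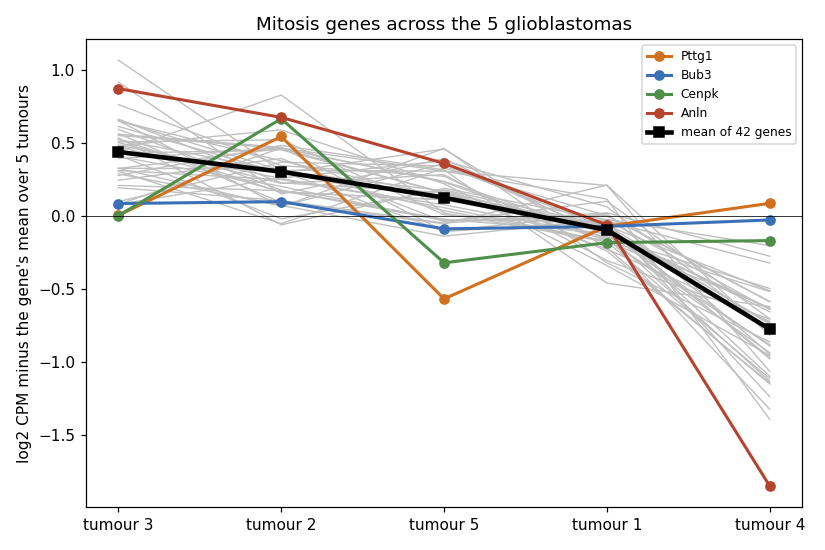
Level of the 42 genes in each tumour, as log2 CPM of a gene minus its mean over the 5 tumours (y), with the tumours in order of their mean (x), 1 line a gene and the mean of all 42 in black. The means are 0.44 in tumour 3, 0.30 in tumour 2, 0.13 in tumour 5, -0.09 in tumour 1 and -0.77 in tumour 4.

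Pairs of tumours were set side by side gene by gene, with the 95% exact Poisson interval of each level. These intervals cover counting error only, and replicate libraries here differ by more than that, so intervals that do not overlap describe the 2 libraries and test nothing. Tumour 2 exceeded tumour 4 in 42 of 42 genes, as it did in 51.9% of all genes tested. The intervals did not overlap in 39 of the 42, against 32.03% of all genes in that direction and 27.6% in the other. Tumour 3 exceeded tumour 4 in 41 of the 42 (52.7% of all genes), 38 with separate intervals (35.0%), at a median ratio of 2.302. Tumour 5 exceeded it in 39 (53.8%), 37 with separate intervals (37.6%), and Pttg1 was separate in the other direction. Tumour 1 exceeded it in 39 (50.7%), 32 with separate intervals (24.5%), at a median ratio of 1.56.

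The upper 4 places had smaller median ratios between neighbours. Tumour 3 exceeded tumour 2 in 28 of the 42 genes (52.0% of all genes tested), 14 with separate intervals (15.0%) and 2 separate the other way (Ndc80 and Pttg1, 13.0% of all genes), at a median ratio of 1.15. Tumour 2 exceeded tumour 5 in 33 (45.7%), 11 with separate intervals (15.6%) and Mki67 separate the other way (19.8%), at a median ratio of 1.13. Tumour 5 exceeded tumour 1 in 32 (52.6%), 14 with separate intervals (22.3%), at a median ratio of 1.16, and Cdk1, Pttg1 and Top2a were separate the other way (16.2%).

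The spread among tumours varied from gene to gene. The ratio of the highest to the lowest tumour had a median of 2.35 over the 42 genes and ran from 1.14 in Bub3 to 6.61 in Anln. Bub1 (4.97), Aurka (4.77) and Cenpe (4.15) were among the widest, and Spc24 (1.40), Nusap1 (1.41) and Racgap1 (1.45) were narrow. The median SD of log2 CPM among tumours was 0.49 for the 42 genes and 0.38 for all genes tested. Relative to a pattern in which every gene shares the same tumour differences, Anln in tumour 4 deviated by -1.07, and Pttg1 and Bub3 in tumour 4 lay 0.86 and 0.75 higher on the log2 scale. Bub1 in tumour 3 lay 0.63 higher and Pttg1 in tumour 5 deviated by -0.69.

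Some other lists moved with the order of the tumours or against it, and their part in it was not tested. The 38 genes of DNA replication had mean log2 CPM of 5.06, 5.50, 5.41, 4.55 and 5.19 in tumours 1 to 5, with tumour 4 lowest and tumour 2 highest. The 7 markers of macrophages and microglia summed to 920, 2034, 2052, 951 and 1574 CPM, low in tumours 1 and 4. The 4 endothelial markers summed to 186, 193, 304, 116 and 177 CPM, lowest in tumour 4 and highest in tumour 3. The 5 markers of oligodendrocyte precursors ran the other way, with 986, 148, 257, 1827 and 389 CPM, and the 5 astrocyte markers had 1023, 805, 678, 1692 and 816 CPM. The 5 myelin markers had 447, 390, 209, 627 and 191 CPM, highest in tumour 4 and lowest in tumour 5. Other lists followed neither direction. Neuronal markers had 337, 501, 356, 422 and 324 CPM, and pericyte markers 199, 181, 124, 142 and 261 CPM. Red blood cell markers had 16.6, 46.7, 66.0, 56.9 and 10.3 CPM. The 4 neural progenitor markers had 5775, 5515, 5275, 4869 and 5257 CPM. Tumour 4 was lowest in that sum, but tumours 1 and 4 were highest on mean log2 CPM (7.67 and 7.44). Tumour 4 also had the most fragments, and after all libraries were thinned to 1 depth the order was the same, with tumour 4 lowest in 37 of 42 genes.

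Genes related to the 42 were counted in the same fit, where 37.1% of all genes tested were higher and 33.9% lower. The filter limit given above holds for these lists too. All 3 brains reached the filter level in 20 of 33 other centromere and kinetochore genes. They did so in 18 of 30 other spindle and cytokinesis genes, 9 of 15 other Cdk1 regulators and 28 of 38 DNA replication genes. The counts were 15 of 17 for the anaphase-promoting complex, 17 of 21 for cohesin and condensin and 10 of 11 for the MuvB list. Genes under it in a brain passed through their tumour levels, which favours higher calls. Of 33 other centromere and kinetochore genes, 29 were higher (87.9%) and 1 was lower, with a median log2 fold change of 2.11. The lower genes numbered 2 without tumour 4 and with limma on FPKM. Knl1, the kinetochore scaffold to which Bub3 binds, rose by 6.34 ± 0.53, and Sgo1, shugoshin, which protects centromeric cohesion, by 5.81 ± 0.63. Zwint, a partner of Knl1, fell from 358 ± 65.2 to 221 ± 20.2 CPM (SD, -0.70 ± 0.15).

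Of 30 other spindle and cytokinesis genes, 26 were higher (86.7%) and 1 was lower (median 3.76). Cep55, of the midbody, rose by 7.17 ± 0.87. Kif18b, a kinesin, was counted 2 times in the brains, and its ratio of levels was 153 with a Poisson interval of 42.5 to 1267. Cit, citron kinase, fell from 70.6 ± 8.74 to 17.9 ± 6.73 CPM (-1.99 ± 0.31).

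Among 15 other regulators of Cdk1 and the mitotic kinases that could be tested, 11 were higher (73.3%) and 2 lower (13.3%, median 2.52). Trip13, which remodels Mad2, rose by 5.62 ± 0.76 and Cks1b, a Cdk-binding subunit, by 5.27 ± 0.62, while Arpp19, an inhibitor of the phosphatase PP2A, fell from 398 ± 120 to 146 ± 24.8 CPM (-1.44 ± 0.22).

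Of 17 genes of the anaphase-promoting complex and its regulators, 10 were higher (58.8%) and 1 lower (5.88%), with a median log2 fold change of 0.62. Fbxo5, the inhibitor Emi1, rose by 3.83 ± 0.43 and Ube2s by 1.56 ± 0.32, while Fzr1, the activator Cdh1, fell from 50.9 ± 1.44 to 27.4 ± 3.17 CPM (-0.89 ± 0.13). Of 21 genes of cohesin and condensin, 13 were higher (61.9%) and 2 lower (9.52%), with a median of 0.55. The lower genes numbered 1 with DESeq2, other scalings or no filter, and without any 1 of the 3 brains or of tumours 1 and 3. Ncapg of condensin rose by 6.81 ± 0.63, and Cdca5, sororin, was counted 3 times in the brains with a ratio of levels of 88.0 and a Poisson interval of 30.1 to 427. Pds5b, a regulator of cohesin, fell from 224 ± 25.9 to 110 ± 22.6 CPM (-1.02 ± 0.18).

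Of 11 genes of the MuvB complex, B-Myb and the E2F pocket proteins, which act on promoters of the kind described above, 5 were higher (45.5%) and 3 lower (27.3%), shares near those of all genes tested, with a median of 0.50. Mybl2, B-Myb, rose by 4.23 ± 0.62 and Rbl1, p107, by 3.83 ± 0.32, while Lin52 fell from 17.3 ± 2.51 to 7.19 ± 1.31 CPM (-1.26 ± 0.21). All 38 genes of DNA replication were higher, with a median of 2.75. Tk1, thymidine kinase, rose by 5.88 ± 0.58 and Orc1, of the origin recognition complex, by 5.04 ± 0.76.

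Exons of 7 of the 42 genes overlap those of another gene on the opposite strand. No source used here gives the strand setting of the counting, so fragments from the overlapping stretches alone cannot be told apart. The pairs are Ccna2 with Exosc9, Cdc20 with Elovl1, Cdc25b with Spef1, Nusap1 with Oip5, Plk1 with Gm44985, Prc1 with Rccd1 and Ube2c with Tnnc2. Foxm1 overlaps Tex52 and Gm44596 on the same strand. Exosc9 had 1086 brain and 4424 tumour fragments, against 23 and 3747 for Ccna2, and Tnnc2 had 3 and 2 against 8 and 1347 for Ube2c. Elovl1 had 189 and 2661 against 21 and 1561 for Cdc20, and Oip5 had 14 and 258 against 14 and 1688 for Nusap1. Spef1 had 111 and 466 against 177 and 917 for Cdc25b, and Rccd1 had 164 and 326 against 33 and 6400 for Prc1. Tex52 had 28 and 4 against 13 and 523 for Foxm1. The part of the partners in these values was not tested.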

How the data were processed

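RNA was measured in 3 samples of normal mouse brain and 5 of mouse glioblastoma, grouped by the tissue that the labels name. Replicates were numbered in accession order, which pairs no samples. The RNeasy kit with DNase and the TruSeq RNA kit were used, per the labels' protocols. STAR 2.3.0e, Cuffdiff 2.1.1 and the mm9 build are named in the submitters' processing notes, without roles or settings. The authors deposited estimated counts of fragments and FPKM values for 30967 RefSeq transcripts in each library, per the file headers.

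Estimated counts were summed per symbol (RefSeq table for 30474 transcripts, GENCODE for 178) and rounded. The 315 transcripts with no symbol held 0.507% of fragments and kept their own identifiers. For genes with several transcripts, 97.8% of sums were whole within 0.01. None of the 42 genes shared fragments with another gene by this measure (0 of 608) or carried 1 of the 46 values marked as failed. FPKM values were summed per symbol to compare genes. Replicate libraries differed by more than sampling noise in every pair, with a lowest chi-square of 4.96 per degree of freedom.

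The test was edgeR 4.0.16 (TMM, default low-count filter, robust quasi-likelihood F test) over all 8 samples, with Benjamini-Hochberg adjustment over 14641 genes and a threshold of 0.05. Log2 CPM used a prior count of 2. SEs were derived from the F statistic, and for genes with few brain fragments they can be smaller than counting error alone. Exact Poisson 95% intervals cover counting error only. On simulated data of 14361 genes the test recovered 71.1% of 4-fold and 8% of 2-fold changes, and 8.33% of its calls were false. These shares describe the simulated data only. Recovery in the measured data, where 71.0% of genes were called, was not tested. Alternatives were DESeq2 1.42.0, limma 3.58.1 on log2 FPKM, other scalings and filters, thinned libraries, leaving out genes with shared fragments, and leaving out each library. Leaving out brain 1 and tumour 4 together was added after seeing the data. Calculations used R 4.3.3, Python 3.11.15, pandas 2.3.3, numpy 2.4.6, scipy 1.17.1 and matplotlib 3.10.9.

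The 42 genes and all lists were chosen with earlier results of these data known, so their direction is not independent support. All 42 genes were named. Outside them, Trp53 and Hras were named, and in each list the called genes with the largest change, 2 in the direction of most members and 1 in the other. Cks2 was too low to test and Kif14 was not analysed here. Promoter sequences came from the RefSeq table of GRCm38.p6, which differs from the build of the deposited files, so no positions of the measured transcripts are given. The windows of Tpx2, Foxm1, Incenp, Spc24, Aurkb, Ccna2 and Cdc25c were not used here.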

Additional observations from a re-analysis of the deposited data

Results flagged for a closer look

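In 3 of the 42 genes tumour 4 lay far below the other 4 tumours by Dixon's criterion for an outlying sample on the log2 scale, which chance meets in about 1 in 20 groups. A count of 3 in 42 is near that rate, and the share over all genes tested is not given here. Tumour 4 was lowest in 39 of the 42 genes, so the criterion does not set these 3 apart from the rest. Melk, a kinase of dividing cells, had 11.3 CPM in tumour 4 and 25.2 CPM in the next lowest tumour. Cenpe, the kinetochore kinesin, had 41.5 CPM in tumour 4 and 118 CPM in the next lowest. Cdc20, the activator of the anaphase-promoting complex, had 18.9 CPM in tumour 4 and 34.1 CPM in the next lowest. In all 3 genes the level in tumour 4 was above every brain.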

How the results depend on the processing

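The number of the 42 genes higher in glioblastoma was 41 with DESeq2, other scalings, other filters, limma on FPKM, thinned libraries, shared genes left out, and brain 1 and tumour 4 both left out, and ran from 39 to 42 when each library was left out. The median log2 fold change was 3.23 with limma on log2(FPKM + 1) against 4.96, as the added 1 shrinks changes of genes low in brain. The fall of cohesin and condensin genes counted 1 gene in place of 2 with DESeq2, RLE, upper quartile or library size scaling, with no filter and with brain 1 and tumour 4 left out, and 1 to 2 genes when each library was left out. Other centromere and kinetochore genes that fell numbered 2 in place of 1 with limma on log2(FPKM + 1), on log2(FPKM + 0.1) and with brain 1 and tumour 4 left out, and 1 to 2 when each library was left out. The cause was not tested. Of 1178 values of single genes under alternatives, 6 lost their call (Anln in 4, Cdc25b in 2) and 1 gained it (Pttg1). The median of all genes tested moved from 0.06 to 0.20 with library size alone and 0.18 with upper quartile factors, and no direction changed. The order of the tumours was the same under every scaling tried. No paired analysis was possible because the replicate numbers follow accession order and tie no brain to a tumour. Depth limits the brain levels, where 27 of the 42 genes had under 30 fragments.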
